A study of Eumeta variegata with 6 samples.

Results

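The sequences described here are those named for juvenile hormone synthesis, transport, breakdown and response in the head transcriptome of the bagworm moth Eumeta variegata, called Clania variegata in the series title. They were the assembled sequences whose NR or Swiss-Prot name held one of a fixed set of words: juvenile hormone binding, esterase, epoxide or acid, farnesol dehydrogenase, farnesoic acid, methoprene, Krueppel homolog 1, hydroxymethylglutaryl-CoA synthase or reductase, farnesyl pyrophosphate, or mevalonate kinase. Of 41283 assembled sequences, 32 matched, and none of these had to be dropped for a takeout or suppressible name. The samples were 3 libraries of male heads and 3 libraries of female heads. The labels give no age, stage or treatment, and do not say whether each library held a single animal or a pool, so p-values measure only the spread between these libraries, which may be technical.

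Juvenile hormone is a sesquiterpenoid made in the corpora allata, small paired glands behind the insect brain. Its carbon skeleton comes from the mevalonate pathway, which runs from acetyl-CoA to farnesyl pyrophosphate, and is then turned through farnesol and farnesal into the acid that a methyltransferase makes into the hormone. In moths a hemolymph protein from the fat body carries it, an esterase and an epoxide hydrolase break it down, and the receptor methoprene-tolerant passes its signal to Krueppel homolog 1. The hormone holds larvae back from metamorphosis, and in adult moths it is known for roles in egg maturation and reproductive behaviour.

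The 32 sequences covered 10 kinds of protein: 1 juvenile hormone-binding protein, 10 esterases, 6 epoxide hydrolases, 6 farnesol dehydrogenases, 3 juvenile hormone acid methyltransferases, 1 hydroxymethylglutaryl-CoA synthase, 1 mevalonate kinase, 1 phosphomevalonate kinase, 2 farnesyl pyrophosphate synthases and 1 Krueppel homolog 1. No name matched farnesoic acid, methoprene or hydroxymethylglutaryl-CoA reductase in the spelling of the rule. For 21 sequences both databases gave the name, and for 11 Swiss-Prot alone did. Of those 11, 8 were esterases, 5 of which NR named Esterase FE4, a general carboxylesterase name. The authors' KEGG annotation gave an orthologue to 14 of the 32 and placed 9 in insect hormone biosynthesis, a pathway that held 19 sequences of the whole table. All 10 esterases carried a carboxylesterase domain, all 6 epoxide hydrolases the epoxide hydrolase N-terminal domain and all 6 farnesol dehydrogenases a short chain dehydrogenase domain, in the authors' Pfam annotation. Names rest on similarity to other species, and an esterase or dehydrogenase of these large families may act on other substrates.

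Levels are given as FPKM as deposited, which scales fragments by sequence length and library size, so that levels can be compared between sequences. Depth is unknown, because the values did not fall on whole-read steps. The libraries summed to between 480295 and 492028 FPKM, and correlations of log2 values across sequences lay between 0.86 and 0.89 among the males, 0.86 and 0.88 among the females, and 0.80 and 0.86 for pairs of opposite sex. Defining head markers were detected at modest levels. Opsin-1, a visual pigment (TRINITY_DN3564_c0_g1_i1_2), had 5.85 ± 0.36 FPKM in males and 5.25 ± 2.74 FPKM in females (SD, n = 3 each). Opsin-2 (TRINITY_DN22300_c0_g1_i1_2) had 2.33 ± 0.45 FPKM in males and 1.33 ± 0.78 FPKM in females, and the neuronal protein elav (TRINITY_DN4496_c1_g1_i15_1) had 17.1 ± 0.9 FPKM in males and 17.8 ± 0.7 FPKM in females. The 57 sequences that head words matched summed to 311 to 323 FPKM in males and 283 to 304 FPKM in females, but much of this came from widely used proteins such as an Extended synaptotagmin-2 (TRINITY_DN1043_c0_g1_i14_2, 30.5 FPKM in males and 30.6 FPKM in females). Of the 43 tested as described below, 3 were higher in males and 1 in females, beside 7.11% of all sequences. Their median log2 fold change, males minus females, was 0.24, against 0.05 for all sequences. Synaptotagmin 1 (TRINITY_DN14085_c0_g1_i12_2) was higher in males, at 19.9 ± 1.1 FPKM against 14.0 ± 1.1 FPKM in females. So was an acetylcholine receptor subunit (TRINITY_DN1898_c0_g1_i7_2), at 10.1 ± 0.3 FPKM against 6.28 ± 0.90 FPKM. Also higher in males was an arrestin domain-containing protein (TRINITY_DN17309_c0_g1_i6_1), at 4.45 ± 0.58 FPKM against 1.75 ± 0.34 FPKM. The call in the other direction was a CUGBP Elav-like family member (TRINITY_DN5098_c0_g1_i22_2), at 29.0 ± 2.6 FPKM in males against 40.3 ± 3.3 FPKM in females. The words for gonad (25 sequences) and gut (37 sequences) also took in widely used proteins, such as an Inter-alpha-trypsin inhibitor heavy chain (TRINITY_DN485_c0_g1_i13_1, 155 FPKM in males and 154 FPKM in females), so that their sums do not measure gonad or gut content. The libraries also split in a way other than sex: males 2 and 3 and female 2 listed fewer zeros among sequence names ending in 1, and male 1 and females 1 and 3 fewer among names ending in 2. That split was added to the model as an alternative.

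A sequence was tested if 3 or more of the 6 libraries gave it an FPKM of 1 or higher, and 30 of the 32 passed this filter. The test was limma on log2(FPKM + 1) across all 35198 sequences kept, with Benjamini-Hochberg adjustment and a threshold of 0.05. Log2 fold changes are males minus females and understate the change of low sequences. Of the 30 tested, 5 differed between the sexes, 1 higher in males and 4 higher in females, beside 7.11% of all sequences tested (4.40% higher in males and 2.70% higher in females). The members' values did not overlap between the sexes in 14, with males above in 8 and females above in 6, beside 30.2% of all tested (18.2% with males above and 12.0% with females above). Their median log2 fold change was 0.04, against 0.05 for all sequences, and their median absolute log2 fold change was 0.34 against 0.31. The direction was mixed, with 18 above 0 and 12 below, and 14 above 0 with median-of-ratios scaling. That scaling also moved the balance over all sequences, to 1324 higher in males and 1330 higher in females, against 1549 and 952 in the deposited scale. With the library split as a term of the model, 2 members were called, the juvenile hormone-binding protein and a farnesol dehydrogenase, beside 3.23% of all sequences.

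**Figure D1:**
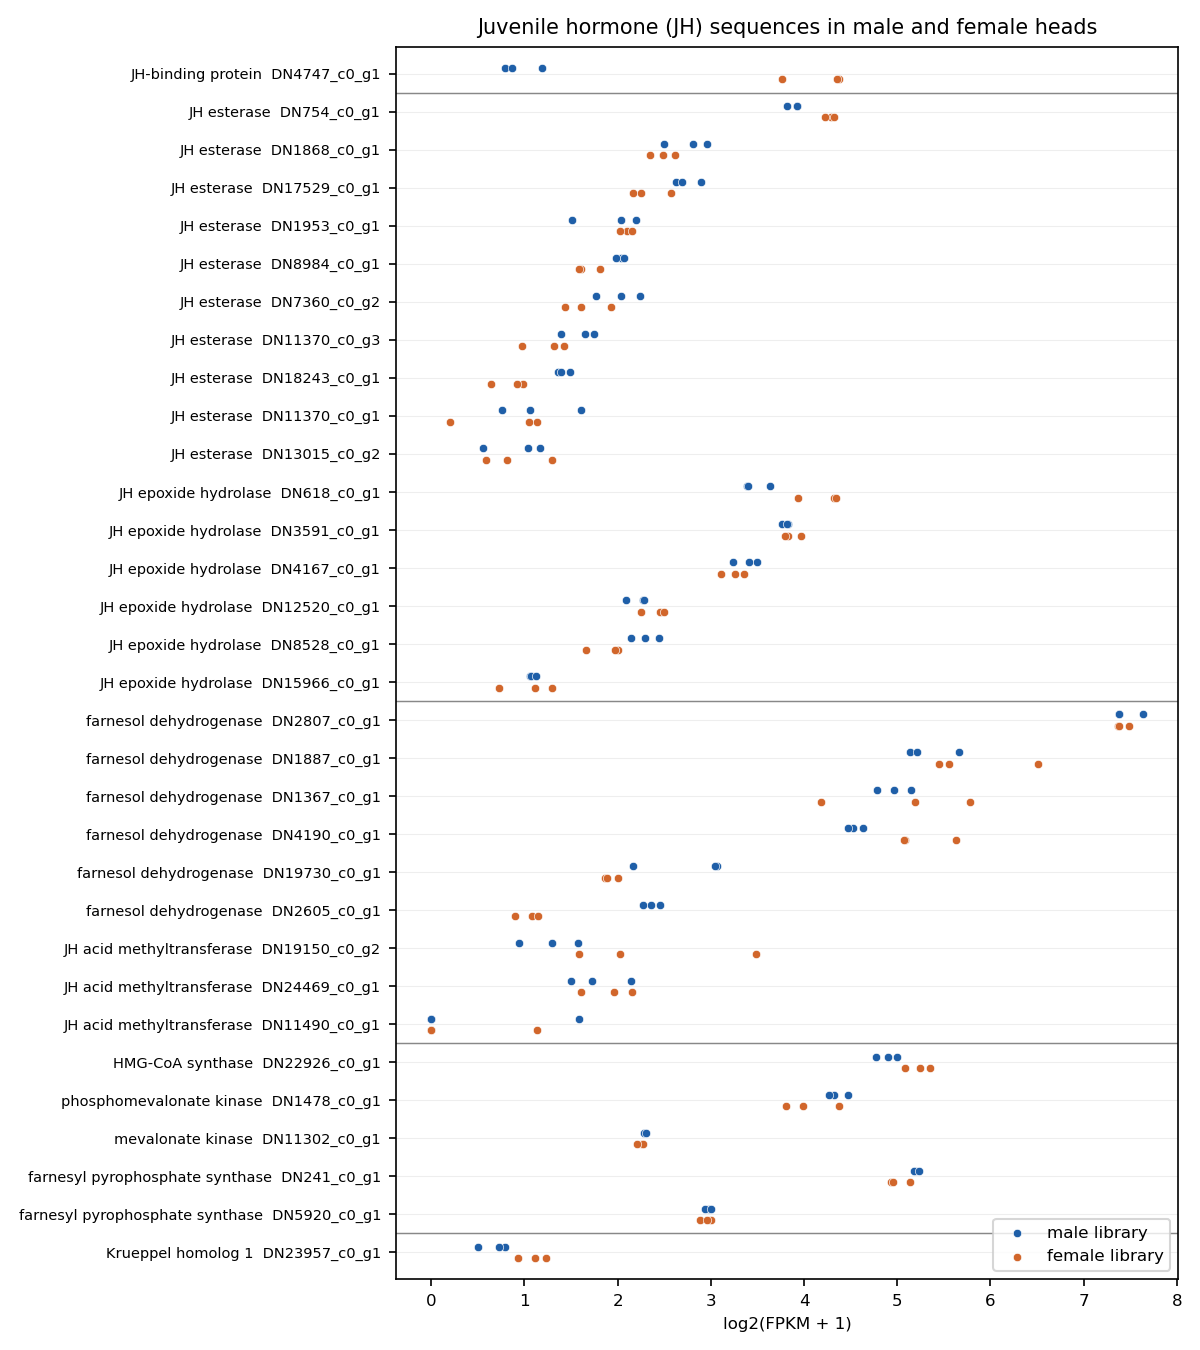
Each row is 1 of the 32 sequences, and each point is its log2(FPKM + 1) in 1 library, with the 3 males above the 3 females in the row. Lines separate carriers, breakdown, late synthesis, the mevalonate branch and response. The juvenile hormone-binding protein has the widest gap between the sexes, and the farnesol dehydrogenase DN2807_c0_g1 the highest level.

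The sequence named for the carrier of the hormone differed most. Juvenile hormone-binding protein (TRINITY_DN4747_c0_g1_i1_2) matched by name the hemolymph carrier of the hawkmoth Manduca sexta, carried that family's Pfam domain and had no KEGG orthologue. It had 0.729, 1.28 and 0.818 FPKM in males 1, 2 and 3, against 19.8, 19.5 and 12.5 FPKM in females 1, 2 and 3. All 3 males lay near or below 1 FPKM, and every female lay well above every male. The means were 0.943 ± 0.297 FPKM in males and 17.3 ± 4.1 FPKM in females (SD, n = 3 each), 18.3-fold higher in females. Its log2 fold change was -3.22 (SE 0.21, 95% interval -3.73 to -2.71, limma adjusted p = 0.0019).

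This was the only member called under each of the 12 alternatives run, with limma adjusted p between 0.0018 and 0.021. Within the split of the libraries the log2 fold change was -3.33 for males 2 and 3 against female 2, and -3.28 for male 1 against females 1 and 3. The protein passed the filter mostly through females, since 1 of 3 males and 3 of 3 females reached an FPKM of 1. In whole heads, fewer cells that make it and less RNA per cell cannot be told apart.

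Other proteins of the fat body and hemolymph were set beside it. The 29 sequences matched by those names summed to between 237 and 255 FPKM in males and between 281 and 299.7 FPKM in females. Of the 22 tested, 4 were higher in males and 3 in females, beside 4.40% and 2.70% of all sequences tested. Their median log2 fold change was 0.08, against 0.05 for all sequences. None of the 29 was at 0 in all libraries. The words also took in receptors and enzymes, and the 18 sequences left without these summed to 145 to 161 FPKM in males and 184 to 205 FPKM in females. The higher sums in females rest on an Arylphorin subunit alpha and an Apolipophorin-3, both described next. The called members went both ways and were named after their values were seen. Those higher in females were a storage protein, Arylphorin subunit alpha (TRINITY_DN18247_c0_g1_i1_1, 0.072 ± 0.031 FPKM in males and 27.0 ± 1.7 FPKM in females, SD, n = 3 each), and the lipid carriers Apolipophorin-3 (TRINITY_DN912_c0_g1_i2_2, 3.05 ± 0.55 FPKM in males and 38.5 ± 7.9 FPKM in females) and Apolipophorins (TRINITY_DN2938_c0_g2_i3_2, 1.44 ± 0.03 FPKM in males and 4.06 ± 0.70 FPKM in females). Those higher in males were a 27 kDa hemolymph protein (TRINITY_DN7096_c0_g2_i5_1, 3.96 ± 0.60 FPKM in males and 0.852 ± 0.278 FPKM in females), a 27 kDa glycoprotein (TRINITY_DN1320_c0_g1_i12_1, 38.5 ± 0.2 FPKM in males and 31.97 ± 2.12 FPKM in females), the iron carrier Transferrin (TRINITY_DN901_c0_g1_i6_1, 5.12 ± 0.57 FPKM in males and 2.57 ± 0.45 FPKM in females) and a Lactotransferrin (TRINITY_DN126_c0_g1_i8_1, 33.8 ± 1.3 FPKM in males and 27.1 ± 2.1 FPKM in females). Swiss-Prot named this Lactotransferrin Melanotransferrin. The called Arylphorin subunit alpha passed the filter through females alone, as its highest male had 0.105 FPKM. The 27 kDa hemolymph protein passed it mostly through males, as females 1 and 3 had 0.546 and 0.918 FPKM. Other sequences of the female-high names were not called, and they also went both ways. Higher means in males were seen for a further Arylphorin subunit alpha (TRINITY_DN16751_c0_g1_i9_1, 20.1 ± 0.5 FPKM in males and 18.0 ± 2.8 FPKM in females) and a further Apolipophorin-3 (TRINITY_DN3687_c0_g1_i2_2, 5.60 ± 1.22 FPKM in males and 4.12 ± 0.60 FPKM in females). Higher means in females were seen for Arylphorin subunit alpha sequences TRINITY_DN10762_c0_g1_i1_1 (0.214 ± 0.371 FPKM in males and 2.38 ± 1.29 FPKM in females) and TRINITY_DN13491_c0_g1_i1_1 (1.48 ± 1.36 FPKM in males and 2.54 ± 1.03 FPKM in females). The part of fat body content in the difference of the binding protein was not tested.

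**Figure D2:**
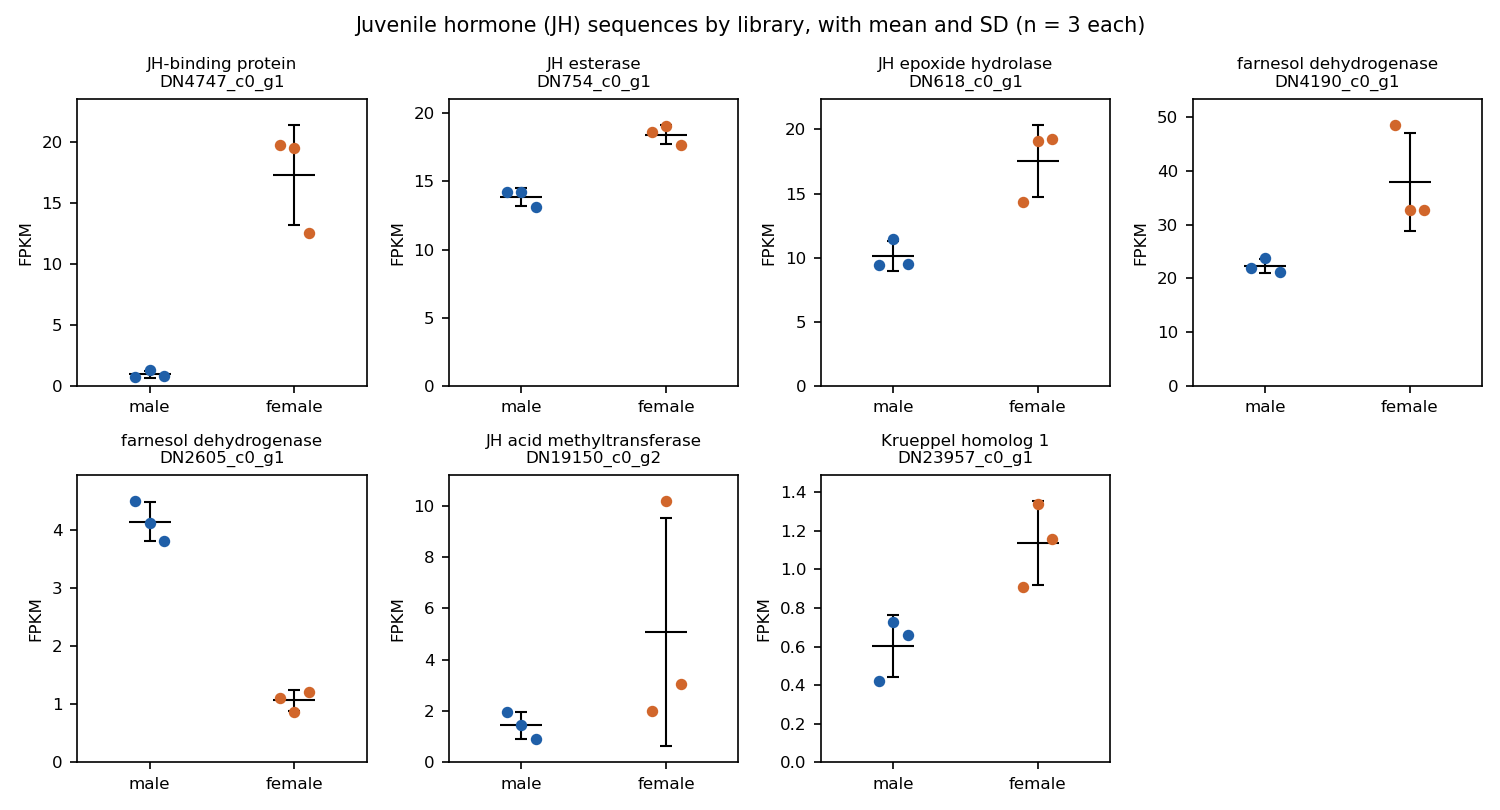
Panels show FPKM in each library for the 5 sequences that differed between the sexes, the juvenile hormone acid methyltransferase DN19150_c0_g2 and Krueppel homolog 1, with males left of females. Bars are the mean and the SD of 3 libraries, every axis starts at 0, and the sexes do not overlap in any panel.

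Among the sequences named for breakdown of the hormone, 2 of 16 differed, both higher in females. Over all sequences tested, 7.11% differed and 2.70% were higher in females. For these 2 the breakdown name came from Swiss-Prot alone. Esterases remove the methyl ester of the hormone, and 1 of 10 was called. That sequence (TRINITY_DN754_c0_g1_i9_2) had 14.2, 14.2 and 13.1 FPKM in males 1, 2 and 3, against 18.6, 19.0 and 17.7 FPKM in females 1, 2 and 3. The libraries of each sex lay close together, and all females lay above all males. The mean was 1.33-fold higher in females, at a log2 fold change of -0.39 (SE 0.06) and a limma adjusted p of 0.019. NR named it Esterase FE4, Swiss-Prot the juvenile hormone esterase of the beetle Tribolium castaneum, and its Pfam domains took in a UDP-glucosyl transferase beside the carboxylesterase. Its value may therefore come from more than one gene joined in the assembly, which was not tested. The call ended without male 1 (limma adjusted p = 0.068), male 2 (0.066), male 3 (0.068) or female 2 (0.074), and with a term for the library split (0.062), at log2 fold changes of -0.35 to -0.41.

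The other 9 esterases had mean levels of 0.915 to 5.21 FPKM and log2 fold changes of -0.18 to 0.56, and 8 of the 9 lay above 0 (7 of all 10 with median-of-ratios scaling). None was called by limma, and 2 had an unadjusted p below 0.05, where 23.3% of all sequences did. The pair that NR and Swiss-Prot both called juvenile hormone esterase leaned towards males. TRINITY_DN8984_c0_g1_i2_1 had 3.11, 3.201 and 2.95 FPKM in males, against 2.05, 2.50 and 1.998 FPKM in females (log2 fold change 0.36, 95% interval -0.03 to 0.75, limma adjusted p = 0.25). TRINITY_DN18243_c0_g1_i1_2 had 1.81, 1.56 and 1.62 FPKM in males, against 0.984, 0.892 and 0.557 FPKM in females (0.56, interval 0.01 to 1.12, adjusted p = 0.21). In both, every male lay above every female, but the difference did not pass the adjusted threshold. The second of them passed the filter through the males alone, as no female reached an FPKM of 1.

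TRINITY_DN17529_c0_g1_i7_1 behaved alike, with 5.18 to 6.41 FPKM in males and 3.50 to 4.96 FPKM in females (log2 fold change 0.40, adjusted p = 0.18). NR named it Bile salt-activated lipase, and KEGG gave it the same orthologue. Another esterase, TRINITY_DN7360_c0_g2_i1_1, had the KEGG orthologue of acetylcholinesterase and overlapped between the sexes (2.40 to 3.74 FPKM in males, 1.71 to 2.80 FPKM in females). A pair of low sequences, TRINITY_DN11370_c0_g1_i1_1 and TRINITY_DN11370_c0_g3_i1_1, shared an assembly component and may share reads. NR named the second of them Neuroligin-4, a neuronal adhesion protein of the same domain family. The first of that pair ranged from 0.695 to 2.05 FPKM in males and from 0.147 to 1.197 FPKM in females. The remaining 3, TRINITY_DN1868_c0_g1_i26_1, TRINITY_DN1953_c0_g1_i13_2 and TRINITY_DN13015_c0_g2_i1_1, also overlapped. Summed over all 10 esterases, males had 40.8, 42.7 and 37.3 FPKM and females 37.7, 41.5 and 36.8 FPKM.

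Epoxide hydrolases open the epoxide ring of the hormone to give a diol. Of the 6, 1 was called, beside 7.11% of all sequences tested. That sequence, TRINITY_DN618_c0_g1_i5_1, had 9.45, 11.5 and 9.51 FPKM in males 1, 2 and 3, against 14.3, 19.1 and 19.3 FPKM in females 1, 2 and 3. Female 1 lay between the males and the other females, and the sexes did not overlap. The mean was 1.73-fold higher in females, at a log2 fold change of -0.73 (SE 0.14) and a limma adjusted p of 0.030. This sequence had no KEGG orthologue, NR listed only an unnamed protein product, and Pfam found a glutathione peroxidase domain beside those of the epoxide hydrolase, so that reads of another gene may be counted in it, which was not tested. The call ended without male 1 (limma adjusted p = 0.10), male 2 (0.061), male 3 (0.10), female 2 (0.094) or female 3 (0.089), and with the library split (0.055), at log2 fold changes of -0.66 to -0.81.

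The 4 epoxide hydrolases with the KEGG orthologue JHEH were not called. The most abundant of them, TRINITY_DN3591_c0_g1_i6_2, had 12.6, 13.2 and 13.1 FPKM in males, against 14.6, 13.2 and 12.9 FPKM in females. Its log2 fold change was -0.06, with a 95% interval of -0.23 to 0.10, and its highest library stood 1.16-fold above its lowest. TRINITY_DN8528_c0_g1_i1_1 had 3.41 to 4.46 FPKM in males and 2.17 to 3.004 FPKM in females, without overlap (0.42, interval 0.01 to 0.82, adjusted p = 0.21). TRINITY_DN12520_c0_g1_i1_2 (3.27 to 3.87 FPKM in males, 3.75 to 4.65 FPKM in females) and TRINITY_DN15966_c0_g1_i1_1 (1.08 to 1.18 FPKM in males, 0.660 to 1.46 FPKM in females) overlapped. So did TRINITY_DN4167_c0_g1_i3_1, which had no KEGG orthologue (8.41 to 10.3 FPKM in males, 7.63 to 9.21 FPKM in females). The 5 uncalled epoxide hydrolases together lay between log2 fold changes of -0.18 and 0.42.

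**Figure D3:**
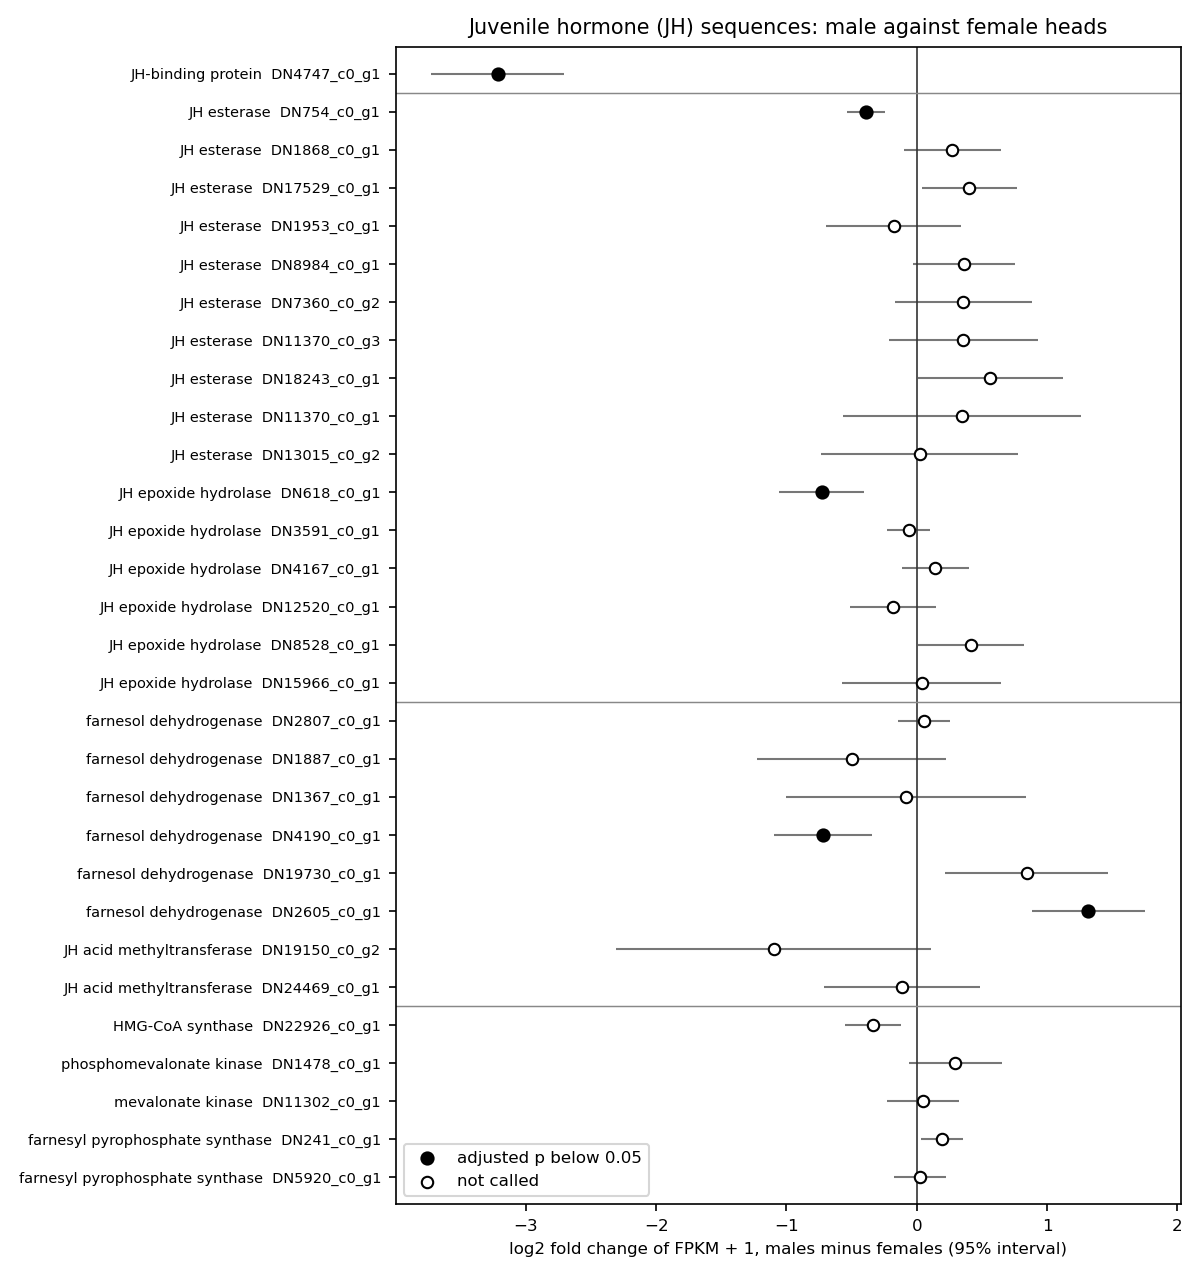
Points are log2 fold changes, males minus females, of the 30 sequences tested, with 95% intervals. Filled points passed the limma adjusted threshold: 1 farnesol dehydrogenase lies right of 0, and the juvenile hormone-binding protein, 1 esterase, 1 epoxide hydrolase and 1 farnesol dehydrogenase lie left of 0.

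Late synthesis begins with farnesol dehydrogenases, which oxidise farnesol to farnesal. Their Swiss-Prot name comes from the enzyme SDR-1 of the mosquito Aedes aegypti. All 6 were tested, and 1 was higher in males and 1 in females, beside 4.40% and 2.70% of all sequences tested. The other 4 were not called. The called pair both had the KEGG orthologue FOHSDR and went opposite ways. TRINITY_DN2605_c0_g1_i11_2 had 4.49, 4.12 and 3.81 FPKM in males 1, 2 and 3, against 1.11, 0.865 and 1.22 FPKM in females 1, 2 and 3. The lowest male stood well above the highest female, and the mean was 3.89-fold higher in males (log2 fold change 1.32, SE 0.18, limma adjusted p = 0.012). With a term for the library split it was still called (1.38, adjusted p = 0.033), but not without male 1 (1.27, 0.065), male 2 (1.32, 0.061) or male 3 (1.36, 0.055).

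TRINITY_DN4190_c0_g1_i1_2, which NR left as a hypothetical protein, had 21.95, 23.8 and 21.2 FPKM in males 1, 2 and 3, against 48.6, 32.8 and 32.7 FPKM in females 1, 2 and 3. Female 1 stood above the other females, and the males lay close together below them. The mean was 1.70-fold higher in females (log2 fold change -0.72, SE 0.16), and its limma adjusted p of 0.047 lay just under the threshold. The call ended with a pseudocount of 0.1 (limma adjusted p = 0.052), with no filter (0.053) and with the library split (0.11). It also ended without male 1 (0.13), male 2 (0.12), male 3 (0.14), female 2 (0.078) or female 3 (0.073), while the adjusted p without female 1 was 0.016 at a log2 fold change of -0.53.

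By level the farnesol dehydrogenases were led by TRINITY_DN2807_c0_g1_i16_1, the most abundant of all 32 members and at rank 259 of the 41283 sequences by mean FPKM. It had 198, 166 and 166 FPKM in males, against 164, 166 and 178 FPKM in females. The sexes overlapped, and the log2 fold change of 0.06 had a 95% interval of -0.15 to 0.26. It made up 59.7% to 67.7% of the summed FPKM of the 6 farnesol dehydrogenases in males and 49.6% to 59.2% in females, whereas the called TRINITY_DN2605_c0_g1_i11_2 made up 1.37% to 1.54% in males and 0.309% to 0.398% in females. The sum itself was 292, 268 and 278 FPKM in males 1, 2 and 3, against 280.2, 279.8 and 359 FPKM in females 1, 2 and 3.

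A further pair spread widely between libraries of one sex. TRINITY_DN1887_c0_g1_i1_2 had 34.1, 36.2 and 49.7 FPKM in males, against 46.0, 42.5 and 90.2 FPKM in females, with female 3 far above the rest. TRINITY_DN1367_c0_g1_i2_1 had 26.6, 34.5 and 30.3 FPKM in males, against 17.2, 35.4 and 54.1 FPKM in females, where females 1 and 3 lay below and above all males. Neither had a KEGG orthologue, and their log2 fold changes were -0.50 (95% interval -1.23 to 0.23) and -0.08 (-1.004 to 0.84). TRINITY_DN19730_c0_g1_i1_2 had 7.37, 3.50 and 7.23 FPKM in males, against 3.005, 2.64 and 2.69 FPKM in females. Male 2 was near the females, the sexes did not overlap, and the log2 fold change of 0.84 (interval 0.21 to 1.47) was not called (limma adjusted p = 0.12).

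The last step in moths is the methylation of the hormone acid by juvenile hormone acid methyltransferase, an enzyme of the corpora allata. All 3 sequences of this name matched the enzyme of the silkworm Bombyx mori. TRINITY_DN19150_c0_g2_i1_2 had 1.97, 1.46 and 0.916 FPKM in males 1, 2 and 3, against 2.01, 10.2 and 3.07 FPKM in females 1, 2 and 3. Female 2 stood alone, and female 1 was hardly above male 1. The difference did not pass the limma test (log2 fold change -1.10, 95% interval -2.30 to 0.11, adjusted p = 0.25), and without female 2 the log2 fold change was -0.54. Within the library split it was -2.36 for males 2 and 3 against female 2 and -0.24 for male 1 against females 1 and 3.

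TRINITY_DN24469_c0_g1_i1_2, the only sequence with the KEGG orthologue JHAMT, overlapped between the sexes, at 3.42, 2.31 and 1.83 FPKM in males and 3.44, 2.88 and 2.04 FPKM in females (log2 fold change -0.11, interval -0.71 to 0.48). The third, TRINITY_DN11490_c0_g1_i1_1, was listed at 0 in male 1, male 2, female 1 and female 2, and had 2.01 FPKM in male 3 and 1.197 FPKM in female 3. It did not pass the filter and was the only one of the 32 with a 0 in any library. All 3 methyltransferases thus averaged at most 3.26 FPKM over the 6 libraries, while the farnesol dehydrogenases averaged 2.60 to 173 FPKM.

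The mevalonate branch supplies farnesyl pyrophosphate, which also serves other products of the cell. None of its 5 members tested was called by limma, and 2 had an unadjusted p below 0.05, beside 23.3% of all sequences. Hydroxymethylglutaryl-CoA synthase (TRINITY_DN22926_c0_g1_i1_2), which makes the precursor of mevalonate, had 31.0, 26.3 and 28.9 FPKM in males, against 39.8, 36.8 and 32.9 FPKM in females. All females lay above all males (log2 fold change -0.34, 95% interval -0.55 to -0.12, limma adjusted p = 0.082). Mevalonate kinase (TRINITY_DN11302_c0_g1_i1_2), which adds the first phosphate, had 3.91, 3.88 and 3.92 FPKM in males, against 3.80, 3.83 and 3.60 FPKM in females. The sexes were separated by a narrow gap, the interval of the log2 fold change was -0.23 to 0.33, and Pfam also found a glycosyltransferase domain in it.

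Phosphomevalonate kinase (TRINITY_DN1478_c0_g1_i2_1), which adds the next phosphate, had 19.0, 18.2 and 21.2 FPKM in males, against 19.7, 14.9 and 13.0 FPKM in females. Female 1 lay among the males (log2 fold change 0.30, interval -0.06 to 0.66, adjusted p = 0.30). Farnesyl pyrophosphate synthase joins the isoprene units, and TRINITY_DN241_c0_g1_i1_2 had 35.4, 35.2 and 36.7 FPKM in males, against 34.1, 29.5 and 29.9 FPKM in females. All males lay above all females (log2 fold change 0.19, interval 0.04 to 0.35, adjusted p = 0.14), and without female 1 this sequence was called at 0.26 (adjusted p = 0.038). The other synthase, TRINITY_DN5920_c0_g1_i2_2, had 6.63 to 6.997 FPKM in males and 6.39 to 6.99 FPKM in females (0.02, interval -0.18 to 0.22).

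Together with 4 enzymes from a list of other genes of the pathway, 9 sequences covered every step from acetyl-CoA to farnesyl pyrophosphate. By mean FPKM they ranged from 3.83 for mevalonate kinase to 53.5 for isopentenyl-diphosphate isomerase. Their log2 fold changes lay between -0.34 and 0.37, with 7 above 0 (5 with median-of-ratios scaling), and 0 passed the adjusted limma threshold, while 5 had an unadjusted p below 0.05 (23.3% of all sequences did). A 3-hydroxy-3-methylglutaryl-coenzyme A reductase (TRINITY_DN7347_c0_g1_i1_1), the enzyme that makes mevalonate, had 4.53, 4.42 and 4.62 FPKM in males, against 2.83, 3.29 and 3.77 FPKM in females. The sexes did not overlap, and the log2 fold change of 0.37 had a 95% interval of 0.04 to 0.69 (adjusted p = 0.17).

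Isopentenyl-diphosphate isomerase (TRINITY_DN10339_c0_g1_i1_1), which interconverts the isoprene units, had 55.9 to 56.8 FPKM in males and 47.9 to 52.5 FPKM in females, with all males above all females (log2 fold change 0.15). Diphosphomevalonate decarboxylase (TRINITY_DN16292_c0_g1_i4_2), which makes the first isoprene unit, lay the other way, at 18.8 to 20.2 FPKM in males and 21.2 to 23.1 FPKM in females (-0.18). Acetyl-CoA acetyltransferase (TRINITY_DN2220_c0_g1_i2_1), which joins the first acetyl units, overlapped at 30.6 to 31.8 FPKM in males and 23.0 to 30.7 FPKM in females (0.19).

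**Figure D4:**
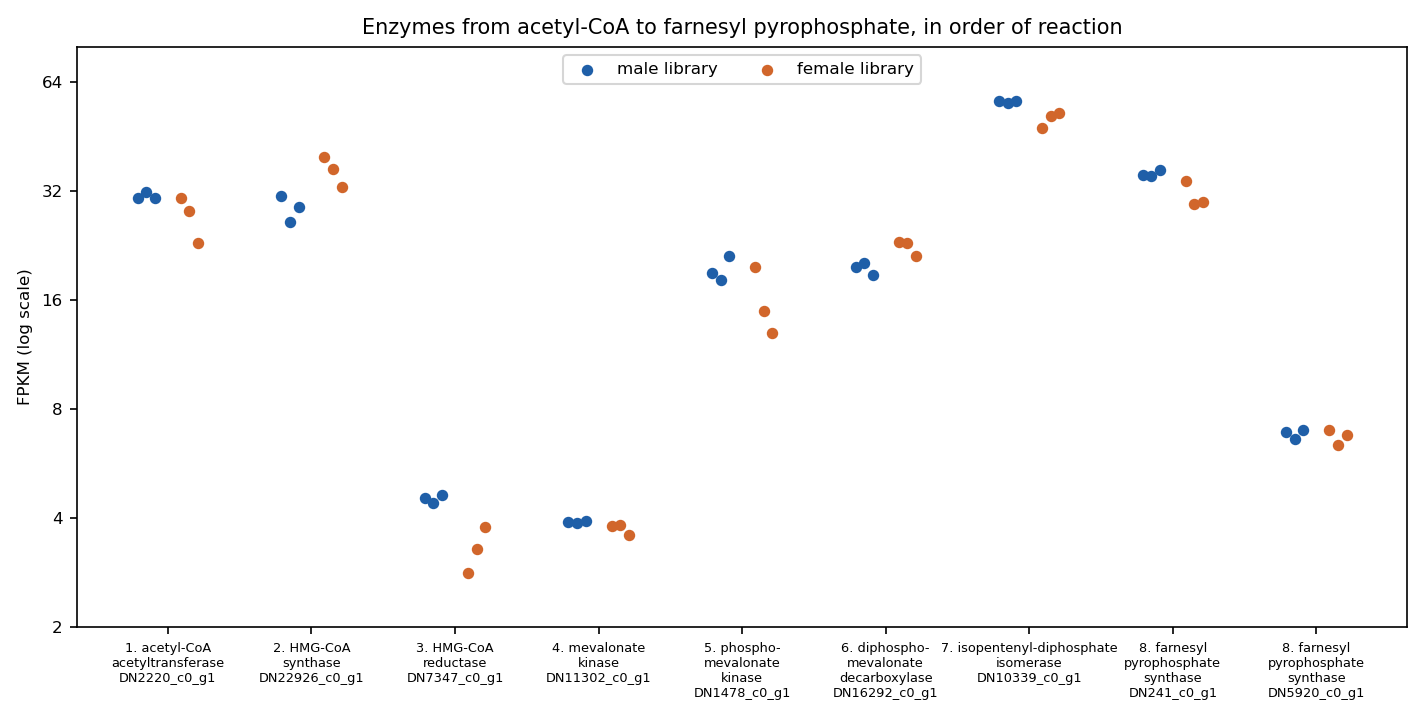
FPKM on a log scale in each library for 9 sequences in the order of the reactions from acetyl-CoA to farnesyl pyrophosphate, with the 3 males left of the 3 females. Levels differ more between enzymes, from 3.83 to 53.5 FPKM on average, than between the sexes at any step.

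Response to the hormone was represented by Krueppel homolog 1 (TRINITY_DN23957_c0_g1_i1_2), a zinc finger transcription factor that juvenile hormone induces and that blocks metamorphosis in Drosophila melanogaster and other insects. It had 0.421, 0.728 and 0.661 FPKM in males 1, 2 and 3, against 0.910, 1.34 and 1.16 FPKM in females 1, 2 and 3. Every female lay above every male, but only 2 libraries reached an FPKM of 1, so it did not pass the filter. In the fit without a filter its log2 fold change was -0.41 (95% interval -0.97 to 0.15, limma adjusted p = 0.37).

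The list of other genes of the pathway held 28 sequences, of which 25 were tested. By limma 0 were called in either direction, and 6 had an unadjusted p below 0.05, near the 23.3% of all sequences. Besides the 4 enzymes above it held 9 nuclear receptor coactivators, 10 sequences with a broad-complex name and 5 for allatostatin, allatotropin or the allatostatin receptor. Allatotropin and some allatostatins are peptides known to raise or curb hormone synthesis in moth corpora allata. Swiss-Prot named the receptor sequences and an allatostatin (TRINITY_DN25021_c0_g1_i1_1) as the A type. Allatotropin (TRINITY_DN3120_c0_g1_i2_1) had 2.89, 3.18 and 2.78 FPKM in males, against 0.567, 2.04 and 2.23 FPKM in females, without overlap (log2 fold change 0.67, interval -0.10 to 1.43, adjusted p = 0.27). Female 1 had much less of it than any other library. The same library was also lowest for an allatostatin sequence, TRINITY_DN25021_c0_g1_i1_1, at 0.679 FPKM. Each of the 5 peptide and receptor sequences had a higher mean in males, from 1.62-fold to 3.04-fold, and none of those tested was called. Both ends of this range came from sequences that did not pass the filter. These were TRINITY_DN9580_c0_g2_i1_1, averaging 0.764 FPKM over the libraries, and TRINITY_DN24964_c0_g1_i1_1, averaging 0.628 FPKM. The words methyl farnesoate epoxidase, cytochrome P450 15 and juvenile hormone diol kinase matched no name.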

How the data were processed

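RNA sequencing was done on 3 male and 3 female head libraries, made with a stranded mRNA kit per the labels' protocols. Tools listed in the submitters' processing notes, with no role given, were HTSeq, R 3.2.0 and Trimmomatic. An aligner is not given in the sources used. The authors deposited FPKM values per assembled sequence, with annotation. Depth is unknown: ratios of values below 2 FPKM between libraries showed no sharp steps, the fullest window of 0.02 log2 units holding at most 3.32% of them.

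Sequences with FPKM of at least 1 in at least 3 libraries (35198) were tested with limma 3.58.1 in R 4.3.3, with a mean-variance trend, on log2(FPKM + 1), males minus females, two-sided. The test was checked on simulated data. Members were found with pandas 2.3.3. The members and lists were chosen with earlier results of these data known, so they are no independent evidence. Sequences were named if called, if the sexes did not overlap with an absolute log2 fold change of at least 1, or if the most abundant of their kind; others were added for a full account. Alternatives were pseudocounts of 0.1 and 0.5, no filter, median-of-ratios scaling, a replicate block, the library split, and each library left out.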

Additional observations from a re-analysis of the deposited data

How the results depend on the processing

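The count of juvenile hormone sequences called, 5, was 4 or 5 with other pseudocounts, no filter and median-of-ratios scaling, which moved the median of all sequences by -0.05 on the log2 scale. It was 2 with the library split in the model (1136 of all sequences called) and lay between 1 and 6 with each library left out in turn (822 to 1776 of all sequences, beside 2501 in the fit to 6 libraries). These alternatives leave fewer residual degrees of freedom or fewer samples. With the replicate number as a block 1 member was called and 631 of all sequences. The member still called was the juvenile hormone-binding protein. The called esterase, epoxide hydrolase and farnesol dehydrogenases then had limma adjusted p between 0.058 and 0.092. Same-numbered males and females deviated together at correlations of 0.11, 0.12 and -0.05, and differently numbered ones at -0.18 to 0.09. With 3 libraries per sex, these correlations cannot settle whether the numbers pair the samples, and the labels do not say so. The block also leaves fewer residual degrees of freedom. Farnesol dehydrogenase TRINITY_DN2807_c0_g1_i16_1 changed sign with median-of-ratios scaling (-0.016) and without male 1 (-0.028, the lowest of -0.028 to 0.097 with each library left out), and mevalonate kinase with median-of-ratios scaling (-0.0082), in each case close to 0 and uncalled; the cause was not tested. Depth is unknown, so low sequences such as the methyltransferases and Krueppel homolog 1 have no counting interval.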
